A study of Saccharomyces cerevisiae with 151 samples.

Results

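The genes described here encode the proteins of the cytosolic ribosome of Saccharomyces cerevisiae, chosen by symbol from the array's platform annotation (RPL, RPS or RPP, a number and, for duplicated genes, A or B). The pattern found 135 of the 5923 annotated genes: 74 RPL genes of the large 60S subunit, 55 RPS genes of the small 40S subunit, 5 genes of the ribosomal stalk (RPP0, RPP1A, RPP1B, RPP2A and RPP2B), and RPP1. RPP1 encodes a subunit of RNase P and RNase MRP, which process tRNA and rRNA precursors, and not a ribosomal protein. It is therefore given separately, and every count below is without it.

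RNA was measured on 151 arrays of BY4741, a haploid MATa laboratory strain that lacks functional HIS3, LEU2, MET17 and URA3 genes, and of strains made from it by deleting transcription factor genes. Cultures in synthetic complete medium at 28 °C received 100 mM 3-aminotriazole (3AT) once they had reached an OD600 of 0.5. The 0 min samples were taken without 3AT. The usual purpose of 3AT is to limit histidine by inhibiting His3. As these strains lack functional HIS3, 3AT cannot act on them through His3. Whether the cells ran short of histidine was not tested. The wild type (WT, 24 arrays) and strains lacking GCN4 (gcn4, 23 arrays), LEU3 (leu3, 24 arrays) or GAT1 (gat1, 23 arrays) were sampled at 0, 10, 20, 30, 45, 60, 90 and 120 min. The double deletions gat1gcn4 (16 arrays), gcn4leu3 (18 arrays) and gat1leu3 (17 arrays) were sampled at 0, 10, 20, 30, 45 and 60 min. A strain lacking MET31 (met31) had 1 array at each of those 6 times and entered no test. There were 45 groups of 3 arrays and 5 groups of 2. Per the labels' protocols a culture was sampled again at each time, so arrays of 1 strain can share a culture. Whether replicate arrays stand for separate cultures is not given in the labels; p-values therefore cover only the variation among these arrays, part of which may be technical, and the number of arrays limits the precision.

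As background, a yeast ribosome is made of equal amounts of its proteins, most of which are encoded by a pair of nearly identical genes. Transcription of these genes depends on Rap1 and on Fhl1 with its coactivator Ifh1, and is driven by nutrients through TOR kinase, Sch9 and Sfp1. When yeast cells meet starvation or stress, mRNAs of ribosomal proteins usually fall together with those of ribosome biogenesis factors, while general stress genes rise. Gcn4 activates amino acid biosynthesis genes, Leu3 those of branched-chain amino acids, Gat1 genes under nitrogen catabolite repression, and Met31 sulfur genes.

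The near identity of the paralogs limits what the array resolves. Of the 134 ribosomal protein genes and RPP1, 72 had a probe set of their own that is not marked as shared, and 9 had their own probe set with a mark of possible cross-hybridisation. The other 54 genes (27 pairs) were read only through probe sets annotated with both members of a pair. Counting each gene with its own probe set once and each of the 59 shared probe sets once gave 140 readouts, 139 of them ribosomal and all 139 past the filter on low signals. On 134 of the 139, the signal stayed above the array's floor on every one of the 145 arrays of the 7 strains with replicates. A pair with several shared probe sets is counted more than once, so the 139 are not independent. Levels of different probe sets are not comparable, so each probe set is compared only with itself across arrays.

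These probe sets are among the brightest on the array. Their median signal over the 145 arrays ran from 674 to 41612 (RPS21A) with a median of 10634, against 238 over all 5930 features tested, and 129 of the 139 lay among the 297 features above the 95th percentile. All 165 probe sets matched by the pattern, that of RPP1 and those not used as readouts among them, held between 19.7% and 34.4% of all probe set signal on an array. Shares of signal given below are over the same probe sets without that of RPP1, so they cover more than the 139 readouts. In bulk RNA a smaller share of signal and a larger amount of other RNA per cell cannot be told apart.

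Some facts of the series bear on these values. In 78 arrays the deposited signals had a common scale, and in 73 another: replicate 3 of gcn4 and leu3 and every double deletion and met31 array. All were rescaled here to a 2% trimmed mean of 500, but strain and deposited scale cannot be told apart for the double deletions. As a check of the labels, the median GCN4 signal was 6745 in WT, 259 in gcn4, 27.1 in gat1gcn4 and 17.9 in gcn4leu3. The library labelled gcn4 90 min replicate 3 read 2289, where the next highest gcn4 array read 434 and the lowest WT array 5371, so its GCN4 signal goes against its label. LEU3 and GAT1 had medians of 117 and 138 in WT, and 4.91 to 8.49 in the strains that lack them. Among WT arrays LEU3 was at 63.7 or more except for 1.05 on the one labelled WT 30 min replicate 2, so this array too goes against its label in that gene. The member medians at 30 min in WT and at 90 min in gcn4, and both F-tests, are also given without them. Changes are log2 differences of signal + 16 with their standard error (SE) from limma, fitted to all 145 arrays, and a member was called at a Benjamini-Hochberg adjusted p under 0.05 over the 5930 features.

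In WT, the median of ribosomal protein mRNA stood slightly below its 0 min level at 20 and 30 min of 3AT. The median difference of the 139 probe sets from their WT 0 min mean was 0.02, 0.11 and -0.13 on the 3 arrays at 0 min. It was -0.43, -0.02 and -0.30 at 20 min and -0.15, -0.27 and -0.29 at 30 min. All 3 arrays at 30 min, the library labelled WT 30 min replicate 2 among them, lay below all 3 at 0 min, and at 20 min 2 did. At 45 min the array medians were back between -0.10 and 0.02, and at 60 min between -0.08 and 0.10. The members' share of all signal was 28.4% ± 1.36 (SD, n = 3) at 0 min, 24.7% ± 1.35 (SD, n = 3) at 30 min and 28.0% ± 1.90 (SD, n = 3) at 60 min.

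**Figure D1:**
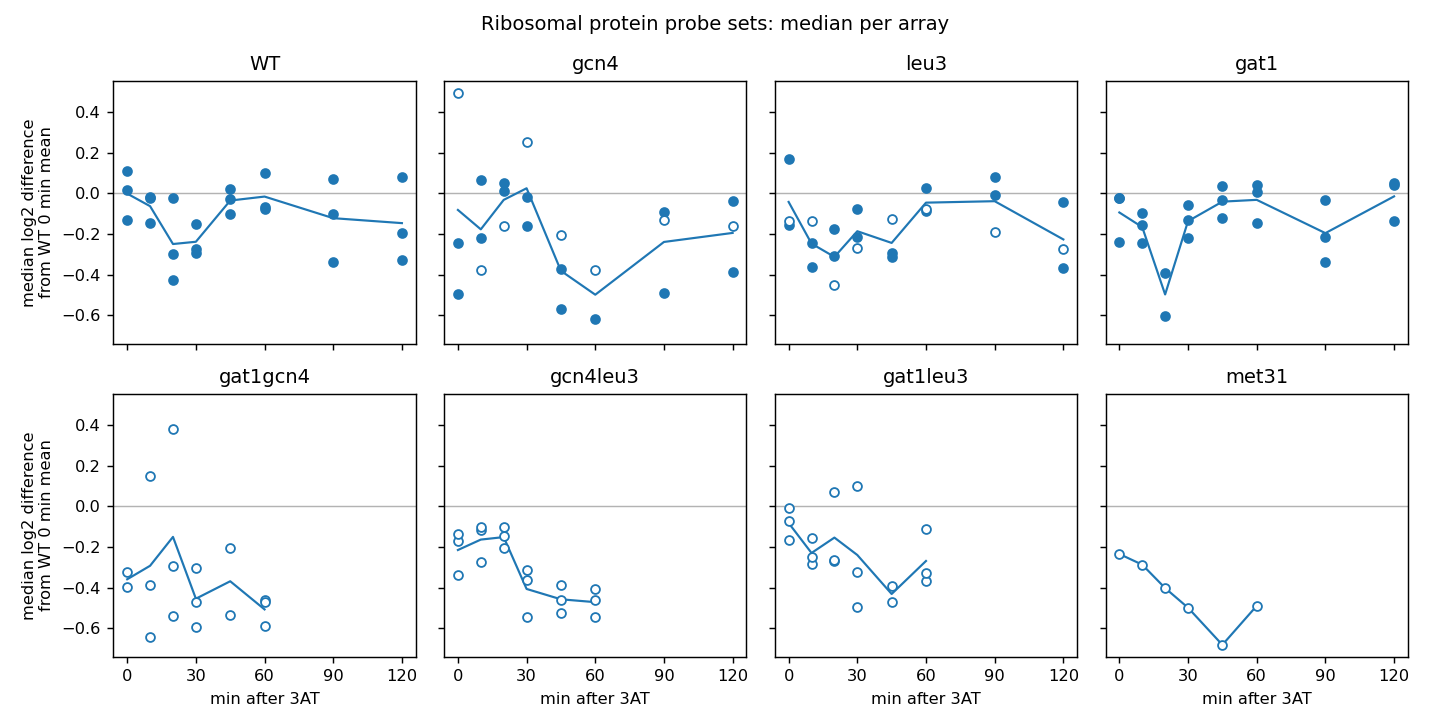
Median over the 139 ribosomal protein probe sets of the log2 difference from their WT 0 min mean (y axis) by time after 3AT in min (x axis), 1 panel per strain. Each point is 1 array (filled, common deposited scale; open, other scale), and the line joins the mean of each time. WT is lower at 20 and 30 min, gcn4 0 min replicate 3 is the highest array at 0.49, and the arrays of gcn4, gat1gcn4 and gcn4leu3 at 60 min lie between -0.62 and -0.38.

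The median change of members in WT was -0.25 at 20 min, against -0.12 over all features, and -0.25 at 30 min, against -0.08. Without the library labelled WT 30 min replicate 2 the 30 min median was -0.22. At 20 min 121 of the 139 changes were negative, and at 30 min 133 were, with the median over all features also negative at both times. With median centring of the arrays the medians were -0.14 and -0.18, and with quantile normalization -0.16 and -0.12, the same direction. At 20 min 1 of 139 members was called lower and 0 higher, with 0.894% of all features called lower and 1.16% higher. The member called was RPS14B, which encodes a 40S platform protein. Every array was lower than every 0 min array for 33 members at 20 min, against 16.6% of all features, and for 29 members at 30 min, against 12.4%.

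RPS14B read 1646, 2040.1 and 3036 at 0 min, and 734, 769 and 1165 at 20 min. All 3 later arrays lay below all 3 earlier ones, a change of -1.30 ± 0.32 (SE, limma adjusted p = 0.0106). The call ended without WT 0 min replicate 3, WT 20 min replicate 1 or WT 20 min replicate 2. RPL5, whose protein binds 5S rRNA on the 60S subunit, read 13324, 14747 and 15417 at 0 min and 3583, 8579 and 11013 at 20 min. Its change was -1.05 ± 0.31 and missed the threshold (adjusted p = 0.0506), with an adjusted p of 0.0435 when isolated readings, described further on, were set aside.

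At 30 min 3 members were called lower, with 0.523% of all features called lower. RPL13A, a 60S protein gene, read 7804, 8306 and 8025 at 0 min and 4788, 4589.8 and 4416 at 30 min, without overlap. Its change was -0.81 ± 0.23 (SE, limma adjusted p = 0.0473), and the call ended without any single array of either time. The other 2 calls, RPL7B (-1.84 ± 0.50) and a probe set shared by RPL7A and RPL7B (-1.62 ± 0.39), came from 1 array, the library labelled WT 30 min replicate 2, on which the 2 overlapping probe sets read 288 and 420.3. With those readings set aside the changes were -0.18 and -0.32, neither called.

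At 10, 45, 60 and 90 min 0 members were called in WT by limma, with 2, 1, 1 and 1 members at an unadjusted p under 0.05. Of all features 0.607% were called higher and 0.573% lower at 10 min. The shares called higher and lower were 0.438% and 0.556% by 45 min and 0.27% and 0.455% by 90 min. At 60 min the largest changes of members were those of RPS14B (-0.78 ± 0.32, adjusted p = 0.515) and a probe set shared by RPL4A and RPL4B (-0.56 ± 0.39, adjusted p = 0.999), where 0.253% of all features were called higher and 0.523% lower. At 120 min 2 members were called lower, with 0.894% of all features. RPS13, a 40S protein gene, read 11549, 13511 and 12769 at 0 min and 10018, 6560.3 and 4390.3 at 120 min (-0.93 ± 0.19, limma adjusted p = 0.00134). RPS14A, the paralog of RPS14B, read 6109, 5953 and 5862 at 0 min and 4532, 4012 and 2250.5 at 120 min (-0.79 ± 0.20, adjusted p = 0.0203). The 120 min arrays of both genes lay below every 0 min array, replicate 3 lowest, and without that replicate neither was called. RPS14A was also not called without any single WT 0 min array.

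Over the whole WT time course an F-test called 4 of 139 members (2.88%), against 6.91% of all features. They were the RPL7A/RPL7B probe set (F = 4.44), RPL7B (F = 3.66), RPS13 (F = 4.55) and RPS14B (F = 3.29), and with isolated readings set aside RPS13 and RPS14B stayed called and RPL36A was added. Without WT 30 min replicate 2 RPS13 alone was called. The SD of the WT group means over the 8 times had a median of 0.17 over members and 0.25 over the 1308 other features with a median signal at least as high as the dimmest member's. That bound was 674, against a median of 10634 over members, so brightness was not matched. The 5 most variable members were RPL7B (0.68), the shared RPL7A/RPL7B probe set (0.59), RPS14B (0.42), RPL5 (0.36) and an RPL4A/RPL4B probe set (0.36). The 5 least variable were RPP2B (0.053), RPS25A (0.051), RPS2 (0.050), an RPL19A/RPL19B probe set (0.046) and an RPS24A/RPS24B probe set (0.044).

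**Figure D2:**
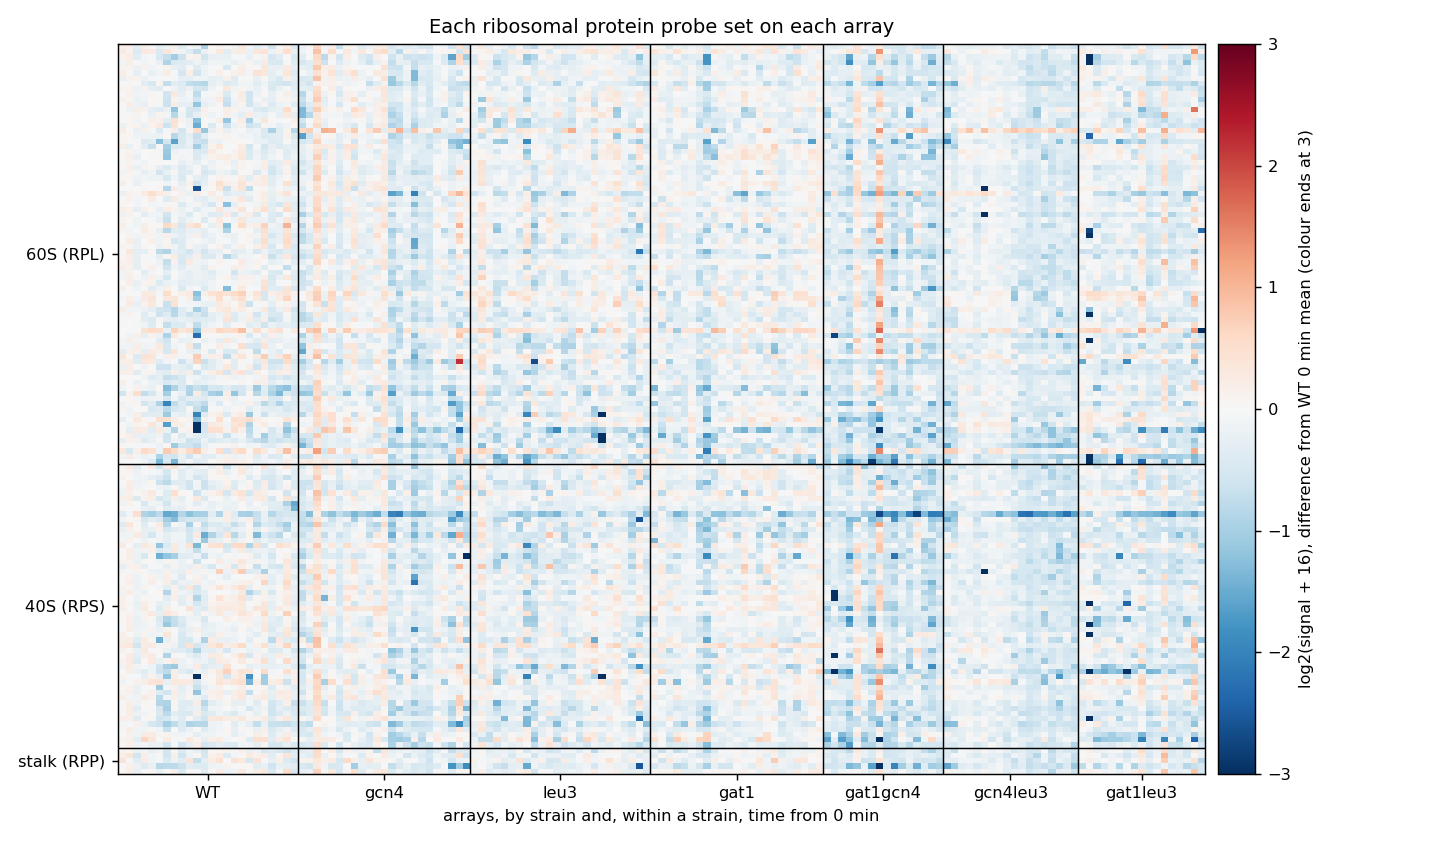
Each of the 139 probe sets (rows, grouped as 60S, 40S and stalk) on each of the 145 arrays (columns, by strain and within a strain by time). Colour is the log2 difference of signal + 16 from the WT 0 min mean. Whole columns are pale red or pale blue, such as gcn4 0 min replicate 3, RPS14B is the blue row in the 40S block, and the single dark cells are the 26 isolated low readings.

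Members moved together from array to array, also between replicates. The pooled SD within groups of the array medians was 0.18 for members and 0.064 for all features. These 2 values are not alike, since the scaling over all probe sets and the larger number of features both hold down the second. The highest array was gcn4 0 min replicate 3, at 0.49 with 34.4% of all signal, and the lowest with replicates was gat1gcn4 10 min replicate 2, at -0.64. On gcn4 0 min replicates 1 and 2 the members stood at -0.49 and -0.25. The 3 arrays of unstressed gcn4 thus lay farther apart than any pair of group means. The same 3 arrays also differed in other lists: the median of 28 general stress genes was 3.36, 3.16 and 0.63 above WT, and that of 103 ribosome biogenesis genes was -0.85, -1.01 and 0.30. On gcn4 0 min replicate 3 the deposited trimmed mean was 39.2, the lowest of the gcn4 arrays. The part of these lists and of that low signal in the members' values was not tested.

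Before 3AT 0 members were called between WT and gcn4, leu3 or gat1 by limma, with 4, 0 and 1 at an unadjusted p under 0.05. In those comparisons 2.70% of all features were called higher and 1.87% lower in gcn4, 0.0506% and 0.118% in leu3, and 0.0169% and 0.0843% in gat1. The members' median difference from WT was -0.08 in gcn4, -0.08 in leu3 and -0.12 in gat1. The largest differences were -0.64 ± 0.30 for RPL16A and -0.62 ± 0.27 for an RPL8A/RPL8B probe set in gcn4, 0.59 ± 0.47 for RPL37B and 0.54 ± 0.35 for RPL9A in leu3, and -0.60 ± 0.44 for an RPL41A/RPL41B probe set and -0.59 ± 0.39 for an RPL4A/RPL4B probe set in gat1. In gcn4 this rested on replicate 3. With arrays of the common deposited scale alone, the median was -0.36 and 12 members were called lower, and in the fit on all arrays but gcn4 0 min replicate 3, 4 were: RPL14B, RPL16A, RPL36B and an RPL8A/RPL8B probe set.

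After 3AT the members' direction in gcn4 up to 30 min depended on which single array at 0 min was left out, and their medians were lower at 45 and 60 min. The members' median change from gcn4 0 min was -0.12 at 10 min, 0.02 at 20 min and 0.09 at 30 min, with 0 members called at each by limma and 0, 4 and 3 at an unadjusted p under 0.05. At 20 min 1.75% of all features were called higher and 2.51% lower, and at 30 min 1.15% and 1.77%. Without gcn4 0 min replicate 3 the medians were 0.18, 0.29 and 0.37, and 4, 6 and 5 members were called higher, RPL14B and RPL16A at all 3 times. The lowest medians without 1 gcn4 0 min array went the other way, at -0.33, -0.21 and -0.11. With arrays of the common deposited scale alone the medians were 0.28, 0.35 and 0.26, and 7, 7 and 4 members were called higher. The shares of all features called in these fits are not given here, so these counts are no result about the members. The median change was -0.30 at 45 min and -0.43 at 60 min, when 133 of 139 changes were negative and the median over all features was 0.01. These later medians were -0.04 and -0.17 without gcn4 0 min replicate 3, and with quantile normalization they were -0.05 and -0.13. At 60 min 38 members had both arrays below all 3 at 0 min, against 8.97% of all features. At 60 min 6 members were called lower, with 0.995% of all features called lower and 0.607% higher.

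The members called at 60 min were 40S and 60S genes. RPS20, a protein of the 40S head, read 7124, 8531 and 16015 at 0 min and 2460.4 and 8264 at 60 min, a change of -1.13 ± 0.29 (SE, limma adjusted p = 0.0163). RPS2, a 40S protein at the mRNA entry, read 12731, 12420.2 and 27142 and then 5259 and 12749 (-0.99 ± 0.26, adjusted p = 0.0189). The groups of both genes overlapped, and replicate 1 was the lower array at 60 min. A probe set of RPL2A and RPL2B, proteins close to the peptidyl transferase centre, read 24195, 24982 and 43260.0 and then 9616 and 21036 (-1.06 ± 0.25, adjusted p = 0.00827). A probe set of RPL40A and RPL40B, which encode a 60S protein made as a fusion to ubiquitin, read 4151, 6168 and 9971 and then 1935 and 3879 (-1.21 ± 0.31, adjusted p = 0.0198). For both probe sets all arrays at 60 min lay below all at 0 min. The other calls were a probe set of RPL12A and RPL12B, proteins at the base of the stalk (-0.89 ± 0.25), and one of RPS24A and RPS24B, 40S proteins (-0.95 ± 0.22).

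These calls rested on single arrays. Without gcn4 0 min replicate 3, or without gcn4 60 min replicate 1, 0 of the 139 members were called at 60 min. Replicate 2 has no array at 60 min in gcn4. The array medians of replicate 1 were -0.49 at 0 min and -0.62 at 60 min, and those of replicate 3 were 0.49 and -0.38.

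At 45 min 1 member was called lower, with 1.43% of all features. It was RPS14B, which read 1341, 879 and 2527 at 0 min and 539, 495 and 961 at 45 min (-1.16 ± 0.32, limma adjusted p = 0.0282), with 961 on replicate 3 overlapping the 879 of 0 min. It was not called without gcn4 0 min replicate 1 or 3. At 120 min 4 members were called lower, with 3.54% of all features called lower and 1.69% higher: RPP2A, a stalk protein (-1.32 ± 0.34), RPL16B (-1.22 ± 0.34), RPL5 (-1.07 ± 0.31) and RPS7B (-0.89 ± 0.28). For each of the 4 the arrays at 120 min lay below every array at 0 min. Without gcn4 0 min replicate 3 none of them was called and RPL14B was called higher.

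Over time in gcn4, 12 of 139 members were called by the F-test (8.63%), against 10.7% of all features. The 5 with the largest F were the RPS24A/RPS24B probe set (F = 4.96), RPL22B (4.56), RPS7B (4.17), the RPL12A/RPL12B probe set (4.01) and RPS20 (3.95). RPL22B, the minor paralog of RPL22A, read 2599.9, 2409 and 3675 at 0 min and 702 and 1910.1 at 60 min. It then read 4571, 5708 and 3878 at 120 min, above every array at 0 min. Without gcn4 60 min replicate 1 the count was 4, RPL13A, RPL7B, RPP2A and RPS7B. Without the library labelled gcn4 90 min replicate 3 it was 11. The members' median change at 90 min was -0.17 with that library and -0.20 without it.

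In leu3 the members' median change was -0.22 at 10 min, -0.27 at 20 min, -0.13 at 30 min and -0.19 at 45 min, with 0 members called at these times by limma and 4, 12, 3 and 0 at an unadjusted p under 0.05. Of all features 0.202% were called higher and 0.422% lower at 10 min, and 0.472% higher and 0.961% lower at 20 min. At 30 min 0.354% were called higher and 0.607% lower, and at 45 min 0.354% higher and 0.523% lower. It was -0.01 at 60 min. The 4 members called lower at 60 min, where 1.43% of all features were, read isolated low on replicate 3 alone and are given with the isolated readings. At 120 min 1 member was called lower, with 0.624% of all features: RPS15, a protein of the 40S head, read 12146, 17831 and 11001 at 0 min and 8150.3, 2312 and 10284 at 120 min (-1.20 ± 0.31, limma adjusted p = 0.0259). All 3 later arrays were lower, with replicate 2 far below the other two. Over time 5 members were called by the F-test (3.60%), against 4.74% of all features. Of these RPL6B, RPS29A and 2 RPL8A/RPL8B probe sets rested on the isolated readings, and RPS28A (F = 3.68) stayed called with them set aside. RPS28A read 4528, 7238 and 5669 at 0 min and 2677, 3323 and 2097 at 20 min, without overlap (-1.10 ± 0.32, limma adjusted p = 0.0555). Without leu3 60 min replicate 3 the count was 0.

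In gat1 the lowest time was 20 min, a group of 2 arrays whose medians were -0.60 and -0.39. The 3 arrays at 0 min stood at -0.24 to -0.02, so the groups did not overlap. The median change was -0.39, against -0.08 over all features, and 131 of 139 changes of members were negative. For 58 members both arrays lay below all 3 at 0 min, against 20.7% of all features. At 20 min 2 members were called lower, with 1.13% of all features called lower and 0.911% higher. RPS10A, a 40S protein gene, read 13132, 15838 and 10609.9 and then 7169.9 and 5642 (-1.03 ± 0.30, limma adjusted p = 0.0410). A probe set of RPS16A and RPS16B, 40S genes, read 6509, 9047 and 7240.2 and then 4147 and 3206 (-1.04 ± 0.25, adjusted p = 0.00866). The median change was -0.02 by 30 min and 0.07 at 60 min. Over time 1 member, RPL17A (F = 3.80), was called in gat1, 0.719% of members against 10.4% of all features. Without gat1 60 min replicate 3 RPL17A was not called and the RPS16A/RPS16B probe set was. Without gat1 0 min replicate 1 or gat1 60 min replicate 2 the count was 2.

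Before 3AT the members of the double deletions had medians below WT. They stood at a median of -0.35 from WT in gat1gcn4 (all features 0.07), -0.23 in gcn4leu3 (0.05) and -0.13 in gat1leu3 (-0.12). In gat1gcn4 both arrays were below all 3 WT arrays for 81 members, against 14% of all features, and in gcn4leu3 all 3 were for 29, against 10.5%. With quantile normalization these medians were -0.08, -0.06 and -0.11, and with median centring that of gat1leu3 turned to 0.05. All these arrays have another deposited scale than WT, so strain and scale cannot be told apart.

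In gcn4leu3 1 member was called lower than in WT at 0 min, with 1.52% of all features. RPL13A read 3653, 2896 and 6848 there against 7804, 8306 and 8025 in WT, without overlap (-0.94 ± 0.23, limma adjusted p = 0.00473). Without gcn4leu3 0 min replicate 3 the count was 9, and without replicate 1 or 2 it was 0. In gat1gcn4 5 members were called lower, with 2.68% of all features: RPL38 (-1.60 ± 0.37), RPS21B (-4.97 ± 0.68), a probe set of RPS21A and RPS21B (-3.70 ± 0.54), RPS27A (-3.16 ± 0.48) and RPS28B (-3.005 ± 0.59). In gat1leu3 13 were, with 5.92% of all features. Of the 13, 4 did not overlap with WT: RPS28B (-2.88 ± 0.53), probe sets of RPL9A/RPL9B (-2.70 ± 0.48) and RPS23A/RPS23B (-0.75 ± 0.25), and RPL9B (-1.71 ± 0.45).

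Nearly all of those calls rested on 1 array per strain. With isolated readings set aside 1 member remained called in gat1gcn4, RPL38, and 1 in gat1leu3, RPL9B. RPL38 read 6927 and 1405 in gat1gcn4 against 9383, 8675 and 10555 in WT. RPL9B read 4134, 442 and 2665 in gat1leu3 against 5549, 5711 and 5609.8 in WT. In both strains the low reading was on the same array as the isolated ones, and without that array (gat1gcn4 0 min replicate 3, gat1leu3 0 min replicate 2) neither gene was called. Without it RPS9A alone was called in gat1gcn4 and 0 members in gat1leu3.

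Among the strains with replicates, those that lack GCN4 had the lowest member medians at 60 min. The array medians were -0.62 and -0.38 in gcn4, -0.59 to -0.46 in gat1gcn4 and -0.55 to -0.41 in gcn4leu3, 8 arrays in all. The 9 arrays of WT, leu3 and gat1 lay between -0.14 and 0.10, above all 8. The 3 arrays of gat1leu3, which carries GCN4, lay between, at -0.37 to -0.11. The single array of met31, which also carries GCN4, stood at -0.49, within the range of the 8. In gat1gcn4 the 2 arrays at 0 min already stood at -0.40 and -0.32, and the median change to 60 min was -0.16. With quantile normalization the median changes to 60 min were -0.13 in gcn4, -0.13 in gat1gcn4 and -0.12 in gcn4leu3, against -0.08 in WT. The members' share of all signal was 21.6% ± 2.36 (SD, n = 2) in gcn4, 21.6% ± 1.45 (SD, n = 3) in gat1gcn4 and 22.0% ± 0.348 (SD, n = 3) in gcn4leu3, against 28.0% ± 1.90 (SD, n = 3) in WT. This set of strains was chosen after the values were seen and has no test. Of the 8 arrays 7 had the other deposited scale.

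Within gcn4leu3 the members' median change from 0 min was 0.08 at 10 min, 0.09 at 20 min, -0.18 at 30 min, -0.22 at 45 min and -0.25 at 60 min. At 60 min 48 members had every array below every 0 min array, against 14.4% of all features, and 1 was called lower, with 0.978% of all features called lower. RPS1A, a 40S protein gene, read 22787, 20477 and 20576 at 0 min and 12031, 13291 and 14162 at 60 min (-0.69 ± 0.20, limma adjusted p = 0.0417). It stayed called without gcn4leu3 0 min replicate 3 and was not called without any other single array of either group. At 10 min RPL13A was called higher, with 0.624% of all features (0.89 ± 0.23, limma adjusted p = 0.0179), from its low 0 min level to 8907, 6598 and 7867. The 3 members called lower at 10 min, with 1.82% of all features, were RPL22A, RPL25 and RPS1B, on isolated readings.

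By the F-test 6 members were called in gat1gcn4 (4.32%, against 4.7% of all features), 6 in gcn4leu3 (4.32%, against 4.84%) and 11 in gat1leu3 (7.91%, against 5.72%). Those that stayed called with isolated readings set aside were RPS14B, an RPL34A/RPL34B probe set and an RPS9A/RPS9B probe set in gat1gcn4, and RPS14B, RPL13A and an RPL8A/RPL8B probe set in gcn4leu3. In gat1leu3 0 stayed called. Its 5 largest F values, for an RPS23A/RPS23B probe set (8.72), 2 RPL11A/RPL11B probe sets (6.71 and 6.03), an RPL36A/RPL36B probe set (6.45) and RPL28 (5.85), all came from 1 array. The 3 other calls in gat1gcn4 were RPS21B, an RPS21A/RPS21B probe set and RPS27A, and in gcn4leu3 RPL22A, RPL25 and RPS1B.

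Whether a deletion altered the response was tested as the difference between a strain's change and that of WT. Every such difference shares the WT 0 min arrays, and those of 1 strain share its own. For the change from 0 to 60 min 0 members were called for gcn4, leu3, gat1, gcn4leu3 or gat1leu3 by limma, with 15, 4, 0, 3 and 15 at an unadjusted p under 0.05. The percent of all features called in either direction was 0.135%, 0%, 0%, 0.169% and 0%. The median differences of members were -0.40, 0.01, 0.09, -0.23 and -0.04. The largest differences were those of an RPL40A/RPL40B probe set (-1.42 ± 0.42, adjusted p = 0.215) and RPL9A (-1.30 ± 0.52) in gcn4, RPL6B (-2.98 ± 0.92) and an RPL8A/RPL8B probe set (-2.74 ± 0.84) in leu3, and RPL6B (0.92 ± 0.92) and RPS14B (0.87 ± 0.46) in gat1. In gcn4leu3 they were those of RPS28B (-1.004 ± 0.75) and RPL9A (-0.96 ± 0.49), and in gat1leu3 those of probe sets of RPS23A/RPS23B (3.31 ± 0.92) and RPL36A/RPL36B (2.95 ± 0.87). In gat1gcn4 3 members were called higher, with 0.995% of all features, and 0 were with isolated readings set aside.

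For the change from 0 to 20 min the median differences from WT were 0.27 in gcn4, 0.46 in gat1gcn4 and 0.30 in gcn4leu3, against -0.01 in leu3, -0.11 in gat1 and 0.17 in gat1leu3. In gcn4leu3 1 member was called higher, with 0.0843% of all features called higher. RPS15 read 12894, 14290.4 and 14733 in WT at 0 min and 6902, 5667 and 9066 at 20 min, while in gcn4leu3 it read 4862, 6474 and 14907 and then 14109, 13825 and 14329.7. The WT arrays were lower at 20 min without overlap, and 2 of 3 gcn4leu3 arrays started low (difference 1.83 ± 0.44, limma adjusted p = 0.0429). RPL5 (1.72) was called too when isolated readings were set aside. The calls at 20 min in gat1gcn4 (3, with 1.26% of all features called higher) and gat1leu3 (5, with 0.961%) were lost with isolated readings set aside.

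In WT at 20 min the median change was -0.26 over 60S, -0.19 over 40S and -0.31 over stalk probe sets, and at 30 min -0.24, -0.25 and -0.21. In gcn4 at 60 min the medians were -0.42, -0.45 and -0.29, and at 120 min -0.16, -0.13 and -0.45. In leu3 at 20 min they were -0.22, -0.33 and -0.07. Differences between the subunits were not tested.

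The stalk genes each had their own probe set. RPP0, the protein that anchors the stalk to the 60S subunit, read 18299, 17569 and 15181 in WT at 0 min and 11691, 17259 and 12706 at 20 min, with overlap (-0.31 ± 0.23, limma adjusted p = 0.609). RPP1A (-0.31 ± 0.22), RPP1B (-0.30 ± 0.25) and RPP2B (-0.08 ± 0.22) were not called there either. RPP2A was the most variable of the 5, at -0.74 ± 0.34 in WT at 20 min (adjusted p = 0.304). In gcn4 RPP2A read 9771, 9143 and 16242 before 3AT and 9298 and 9926 at 60 min. By 120 min it read 3869, 6568 and 3648. The 120 min arrays were the lowest, while RPP0 (-0.51 ± 0.23), RPP1A (-0.13 ± 0.22), RPP1B (-0.45 ± 0.25) and RPP2B (-0.18 ± 0.22) missed the threshold at 120 min.

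RPP1, the RNase P subunit that shares the name pattern, changed by -0.39 ± 0.34 in WT at 20 min and -0.57 ± 0.34 at 30 min (limma adjusted p = 0.708 and 0.514). RPP1 read 135, 160.3 and 357 in gcn4 at 0 min and 500.3, 366 and 482 at 10 min, all above every earlier array (1.10 ± 0.34, limma adjusted p = 0.0269). None of the 139 ribosomal members was called at that time, and the difference between RPP1 and the members was not tested.

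Paralogs with a probe set each could be followed separately in 31 pairs, 26 of them on unmarked probe sets. The difference A minus B depends on the 2 probe sets, so only its variation across groups can be read. By the SD over the 50 group means the most variable pairs were RPS21 (0.68), RPL22 (0.67), RPS28 (0.65), RPL7 (0.54) and RPL9 (0.53). With isolated readings set aside the SD of RPS21 was 0.14, and 6 pairs were above 0.4: RPL9 (0.53), RPL7 (0.53), RPS14 (0.48), RPL22 (0.44), RPL15 (0.42) and RPS28 (0.42), with a median of 0.24 over the 31 pairs.

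RPS14A and RPS14B encode the same 40S protein, which is known to repress splicing of RPS14B pre-mRNA. Their A minus B difference was 1.45 in WT at 0 min, 2.48 at 20 min, 2.47 at 30 min and 1.21 at 120 min. In gcn4 it was 1.94 at 0 min and 2.85 at 45 min, in gat1gcn4 2.06 and 3.32 at the same times, and in gcn4leu3 1.82 at 0 min and 2.96 at 30 min. The widening came mostly from the B gene: of 43 changes from 0 min over the 7 strains, 40 were negative for RPS14B (median -0.66, 22 at an unadjusted p under 0.05, 3 called) and 29 for RPS14A (median -0.13, 4 at an unadjusted p under 0.05, 1 called). The changes within a strain share its 0 min arrays. Another of the 3 calls was in gat1gcn4 at 45 min, with 0.304% of all features called lower, where RPS14B went from 1054 and 1343 to 506 and 295 (-1.58 ± 0.40, limma adjusted p = 0.0108). It was not called without gat1gcn4 0 min replicate 3. In met31 RPS14B read 2020.5, 1804, 985, 724, 1188 and 1385 at 0 to 60 min, lowest at 30 min.

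**Figure D3:**
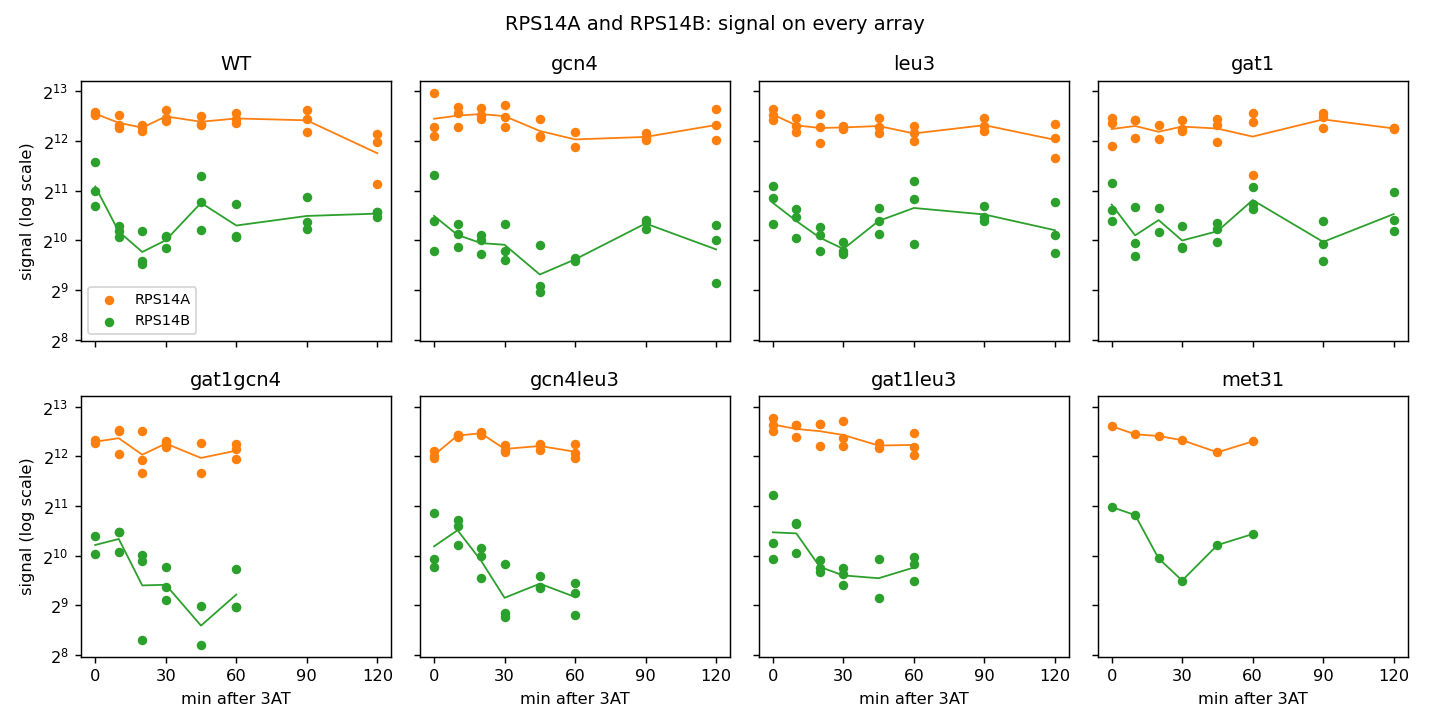
Signal (y axis, log scale) of RPS14A and RPS14B on every array by time after 3AT in min (x axis), 1 panel per strain. Points are arrays and lines join the means of log2 signal. RPS14B falls from 1646, 2040.1 and 3036 in WT at 0 min to 734, 769 and 1165 at 20 min, while RPS14A stays flatter.

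The A minus B difference of RPL22 was 2.89 in gcn4 at 0 min, 3.71 at 60 min and 2.17 at 120 min. In gat1 it was 2.84 at 0 min and 3.92 at 45 min. That of RPL7, isolated readings set aside, ran from -0.45 (gat1gcn4 at 10 min) to 1.69 (gat1leu3 at 20 min). That of RPL9 ran from -1.27 (gat1 at 20 min) to 1.31 (gat1leu3 at 0 min). Differences between paralogs were not tested.

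Many of the largest fold changes of members came from isolated readings, where a probe set read far below its usual signal on 1 array. A reading was called isolated when it was more than 8-fold from the median of its strain and from every other array of its group. Among members there were 26 low and 0 high ones in 20155 readings, on 24 probe sets and 6 arrays, with signals from 1.24 to 1586. That is 0.129% of member readings, against 0.101% in the 1308 other features at least as bright as the dimmest member. Brightness was not matched, as that bound was 674 against a median of 10634 over members. Over all features 477 low and 52 high readings were found, 409 of the low ones on the same 6 arrays.

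Gat1leu3 0 min replicate 2 held 11 of the 26. On it RPL28, next to the peptide exit tunnel, read 42.5 against a strain median of 10733, and RPL39, a small tunnel protein, 38.6 against 7208. RPS22A, a 40S protein gene, read 1101 against 31845. Gat1gcn4 0 min replicate 3 held 4, among them RPS21B with 21.8 against 25953 and RPS27A with 127 against 8017. Leu3 60 min replicate 3 held 4, among them RPL6B with 1.24 against 8020.3 and RPS29A with 101 against 12174. On gcn4leu3 10 min replicate 3 RPL22A read 22.3 against 16594, RPL25, close to the tunnel exit, 9.57 against 8682, and RPS1B 7.36 against 5622. WT 30 min replicate 2 held 3 and gat1leu3 60 min replicate 3 held 1, RPL37B.

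**Figure D4:**
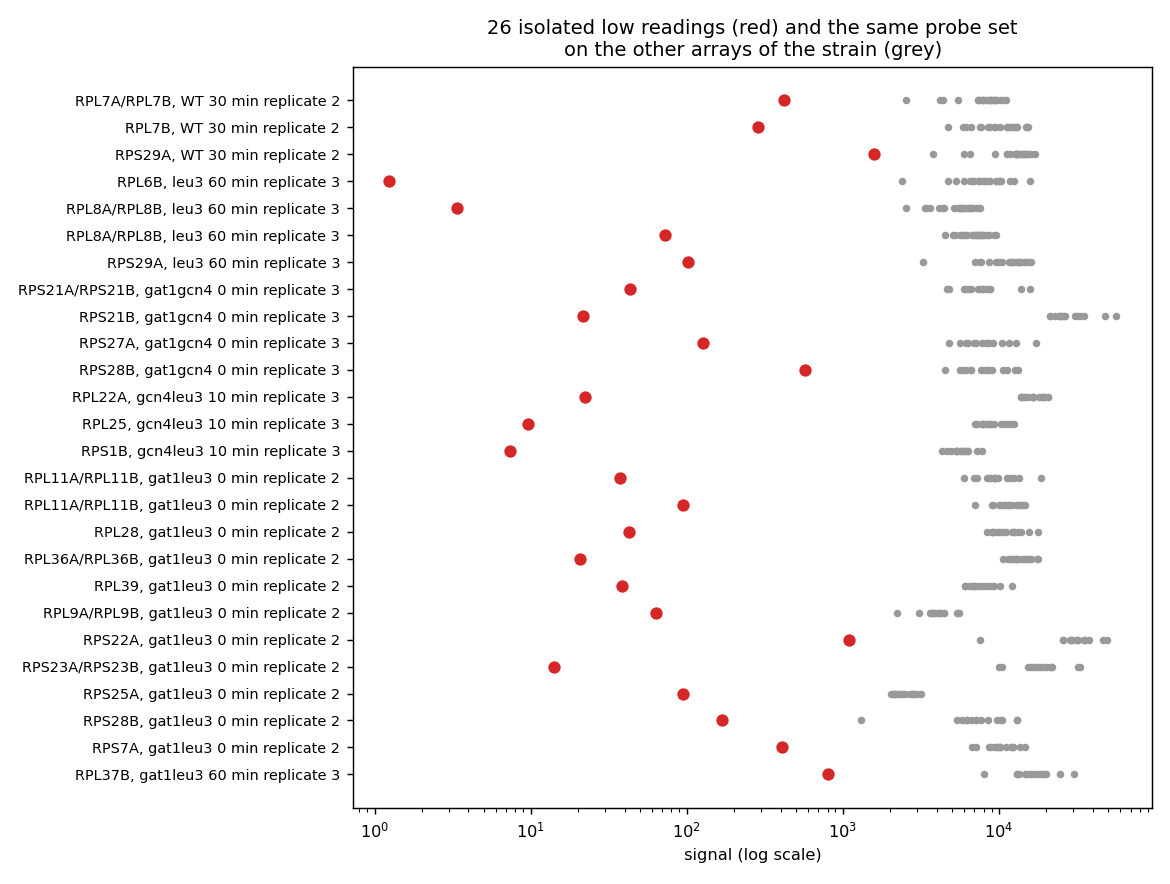
The 26 isolated low readings of members (red) and the same probe set on every other array of that strain (grey), signal on a log x axis, 1 row per reading. The red points lie far left of the grey ones, down to a signal of 1.24 for RPL6B.

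Other probe sets of the same genes did not always go along. For 16 of the 26 readings the genes had another probe set on the array, and in 11 of these at least 1 of them was also more than 8-fold below its strain median. In the other 5 none was. On leu3 60 min replicate 3, 2 probe sets of RPL8A/RPL8B read 3.36 and 73.1, while another of the same pair read 6940.4 there, and 11995 and 10546 on the other arrays of that group.

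Counts of calls changed with these readings. Over the 49 comparisons of 2 groups there were 110 calls of members, 61 higher and 49 lower, on 45 probe sets, where 1.04% of all tests were called higher and 1.21% lower. With isolated readings set aside there were 30, of which 1 was higher and 29 lower, on 24 probe sets, and 24 of the 110 calls were kept. The 4 calls of leu3 at 60 min, RPL6B (-3.24 ± 0.65), RPS29A (-2.64 ± 0.58) and 2 RPL8A/RPL8B probe sets (-3.03 ± 0.59 and -2.35 ± 0.47), became -0.45, -0.59, -0.45 and -0.32.

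Other genes of ribosome production are given beside the members. In gcn4 at 10 min 65 of 103 ribosome biogenesis genes were called higher (list median 1.26, against -0.09 over all features). So were 11 of 34 subunit genes of RNA polymerases I and III (list median 0.74) and 7 of 21 genes of ribosome-associated proteins (list median 0.64). At the same time 0 of 139 ribosomal protein probe sets were called, where 4.49% of all features were called higher and 4.33% lower. The members' median of -0.12 turned to 0.18 without gcn4 0 min replicate 3, with 4 called higher (share over all features not given). It turned to 0.28 on arrays of the common deposited scale, and to 0.08 with quantile normalization and with array quality weights. The lowest median in a fit without 1 gcn4 0 min array was -0.33. Examples are UTP20 (1.75 ± 0.48), NOP7 (1.72 ± 0.27) and SDA1 (1.71 ± 0.34), which act in rRNA processing and 60S assembly, and the polymerase subunit genes RPO31 (1.42 ± 0.36), RPA190 (1.41 ± 0.37) and RPA43 (1.35 ± 0.27). ACL4, the dedicated chaperone of Rpl4, rose by 1.24 ± 0.27, and SQT1, that of Rpl10, by 1.48 ± 0.31. Of 28 general stress genes 11 were called lower (list median -1.46), among them PGM2 (-2.27 ± 0.58), TPS2 (-2.22 ± 0.55) and TSL1 (-2.15 ± 0.58).

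**Figure D5:**
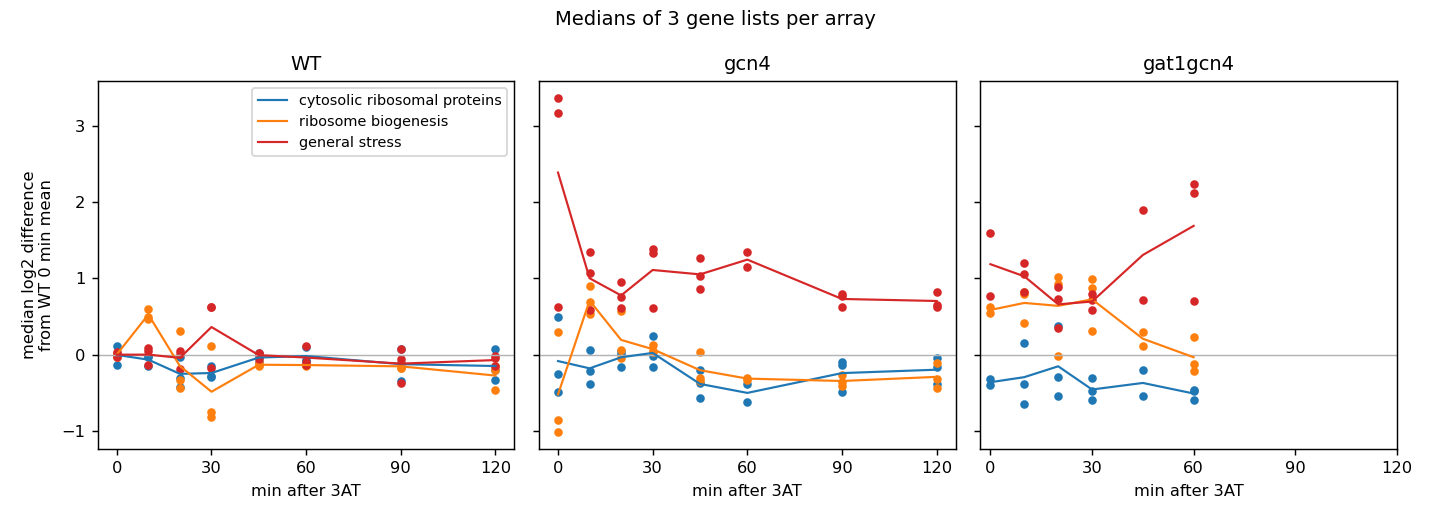
Median log2 difference from the WT 0 min mean (y axis) of cytosolic ribosomal protein probe sets, ribosome biogenesis genes and general stress genes on each array (points), by time after 3AT in min (x axis), in WT, gcn4 and gat1gcn4. Lines join the mean of each time. In gcn4 the biogenesis median goes from -0.85, -1.01 and 0.30 at 0 min to 0.69, 0.53 and 0.90 at 10 min, while the ribosomal protein median goes from -0.49, -0.25 and 0.49 to -0.22, 0.06 and -0.38.

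These gcn4 changes start from the divergent 0 min arrays described above. On the 3 arrays at 10 min the biogenesis median stood at 0.69, 0.53 and 0.90 above WT 0 min, and the member median at -0.22, 0.06 and -0.38. From 0 to 10 min the member median was higher in replicates 1 and 2 and lower in replicate 3, and the biogenesis median was higher in all 3. In gcn4 before 3AT 21 of 28 stress genes were called higher than in WT (list median 2.26). Among them were DDR2 at 4.65 ± 0.88, YGP1 at 4.19 ± 0.53 and HSP12 at 4.13 ± 0.82. Of 103 biogenesis genes 4 were called lower (list median -0.54), and of 139 members 0 were called. There 2.70% of all features were called higher and 1.87% lower.

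In WT at 30 min 2 of 103 biogenesis genes were called lower, LTV1 (-1.84 ± 0.44) and CBF5 (-0.96 ± 0.23), with a list median of -0.54. Among members 3 of 139 were called lower, 2 of them on isolated readings, with 0.523% of all features called lower. At 20 min 0 genes of the biogenesis, polymerase, translation factor, ribosome-associated, mitochondrial ribosome and stress lists were called in WT by limma, with list medians from -0.23 to -0.04. By then 1.16% of all features were called higher and 0.894% lower. The 71 mitochondrial ribosomal protein genes tested had a median of -0.17 in WT at 30 min and 0.13 in gcn4 at 60 min, with 0 called in both. In these 2 comparisons 0.523% and 0.995% of all features were called lower.

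Of 12 genes tied to the control of ribosomal protein or biogenesis genes, TOD6, a repressor of biogenesis genes, rose in gcn4 at 10 min (1.57 ± 0.43, limma adjusted p = 0.00871). RAP1 fell in gat1 at 30 min (-0.84 ± 0.23, adjusted p = 0.0251), and DOT6 fell in gcn4leu3 at 45 min (-1.54 ± 0.43, adjusted p = 0.0312). No other gene of the 12 was called in the 49 comparisons of 2 groups, FHL1, IFH1, SFP1, CRF1, HMO1 and SCH9 among them. CRF1 read near the floor of the arrays, with strain medians of 13.4 to 24.1, so its changes could hardly be read. Over those comparisons 1.04% of the tests of all features were called higher and 1.21% lower.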

How the data were processed

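Probe set signal intensity on a linear scale was deposited by the authors for 151 single-colour Affymetrix yeast arrays, summarised with MAS5 (version not given in the sources used here), per the submitters' processing notes. RNA was labelled with biotin from 6 µg cDNA, per the labels' protocols. The deposited table held 0 columns without a sample, and 0 pairs of arrays were identical. The 2% trimmed mean of 78 arrays was 499.7 to 499.8, and of the other 73 it was 22.4 to 104.3.

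Each array was multiplied by 1 factor to a 2% trimmed mean of 500. Of 9335 probe sets 6832 are named in the platform annotation (6504 with 1 gene, 328 with several); the others were not named. For each gene with its own probe sets the brightest was used, and an unmarked one before any whose name marks possible cross-hybridisation (5656 genes), and each several-gene probe set was kept, giving 5984 features. A feature needed a signal above its array's 20th percentile on 2 of 3 (or 1 of 2) arrays of a group, which left 5930. Tests on log2(signal + 16) used limma 3.58.1 in R 4.3.3 (lmFit, eBayes with trend, 1 coefficient per group, 145 arrays, 95 residual and 8.82 prior degrees of freedom), with Benjamini-Hochberg adjustment over 5930 features, two-sided. The pseudocount understates changes of dim genes. On simulated data of 5930 features for WT at 60 against 0 min, 93% of 100 changes of 2 log2 units and 40% of 100 changes of 1 were recovered, with 8 false calls, so changes under 1 log2 unit were often below what 3 against 3 arrays could call.

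Members and gene lists were chosen with earlier results of these data known. Named were every called member where at most 10 were called, otherwise the 5 largest rises and falls without overlap (for F-tests the 5 largest F), the 2 largest changes where none was called, the stalk genes, RPP1, the 5 most and least variable in WT, the 5 most variable paralog pairs, the deleted genes, and up to 3 called genes of each other list. Genes outside this rule, RPL5, RPL22B's levels by time and those named for fits without 1 array, were chosen after their values were seen. Setting aside isolated readings was also added after the data were seen; a reading so set aside is missing in that fit. Alternatives were median centring, quantile normalization, a trimmed mean without members, a pseudocount of 1, no filter, probe sets of 1 gene, arrays of the common scale (77 arrays), a replicate block, array quality weights and leaving out 1 array (59 fits). No sequences or coordinates are given.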

Additional observations from a re-analysis of the deposited data

Results flagged for a closer look

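Each result here is a called difference between a strain and WT in the change from 0 min, tested as an interaction in limma, and all but 1 rest on isolated low readings at 0 min. In gat1gcn4 the change from 0 to 20 min exceeded that of WT by 5.08 for RPS21B, 4.06 for the shared RPS21A/RPS21B probe set and 3.66 for RPS27A. For 0 to 60 min the differences were 4.25, 3.34 and 2.63. With isolated readings set aside the 20 min values were 0.16, 0.53 and 0.74, the 60 min values were -0.68, -0.18 and -0.29, and none was called (adjusted p from 0.742 to 0.994). In gat1leu3 the differences for 0 to 20 min were 3.39 and 2.79 for 2 RPL11A/RPL11B probe sets, 3.32 for an RPL36A/RPL36B probe set, 4.13 for an RPS23A/RPS23B probe set and 2.15 for RPS7A. Set aside, they were 0.92, 0.55, 0.41, 1.15 and 0.67, none called. In gcn4leu3 the difference of RPS15 for 0 to 20 min was 1.83 with and without isolated readings (adjusted p = 0.0429 and 0.0339). Its adjusted p ran from 5.10e-06 to 0.4004 over 18 alternatives, and 10 of them ended the call.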

How the results depend on the processing

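Counts of members called are given with the main count in brackets where they moved by more than 1.5 times, and the cause was not tested unless stated. Median centring gave 1 (2) in WT at 120 min, 2 (1) in gcn4leu3 against WT at 0 min and 2 (4) over time in WT. Quantile normalization gave 3 (1) in WT at 20 min and 2 (4) over time in WT. A trimmed mean without members, and a pseudocount of 1, each gave 2 (1) over time in gat1. Leaving out the low-signal filter changed none by that much. With probe sets of 1 gene, which leaves fewer members, counts were 2 (1) in WT at 20 min, 7 (13) in gat1leu3 against WT, and over time 3 (5) in leu3, 3 (6) in gat1gcn4 and 6 (11) in gat1leu3. With the 77 common-scale arrays they were 8 (1) in WT at 20 min, 12 (0) in gcn4 against WT, and over time 9 (4) in WT, 21 (12) in gcn4, 11 (5) in leu3 and 9 (1) in gat1; that fit was not possible for the double deletions or gcn4 at 60 min.

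The replicate block gave 5 (1) in WT at 20 min, 1 (0) for the difference of gat1leu3 at 60 min, and over time 9 (4) in WT, 31 (12) in gcn4, 9 (5) in leu3, 8 (1) in gat1, 23 (6) in gat1gcn4 and 12 (6) in gcn4leu3. Deviations of same-numbered arrays from their group means correlated above 0.1 in 56 of 84 pairs in WT, 76 of 77 in gcn4, 74 of 84 in leu3, 45 of 77 in gat1, 34 of 35 in gat1gcn4, 38 of 45 in gcn4leu3 and 30 of 40 in gat1leu3. The median correlation was 0.13 to 0.30 for same numbers and -0.20 to -0.07 for different ones. Deviations within a group cancel out, so the values for different numbers partly follow from those for same numbers. In gcn4 and leu3 replicate 3 also had another deposited scale, and what the numbers stand for was not tested. The labels do not say whether numbers follow cultures, and no strain had every pair above 0.1, so the block stayed an alternative. Array quality weights gave 19 (1) and 11 (2) in WT at 20 and 120 min. Against WT at 0 min they gave 22 (0) in gcn4, 1 (0) in gat1 and 35 (1) in gcn4leu3. Of all features 1558, 81 and 1315 were called there. For the 60 min differences they gave 2 (0) in gcn4, 12 (0) in gcn4leu3 and 1 (0) in gat1leu3. Of all features 355, 740 and 47 were called for these. Over time they gave 15 (4) in WT, 48 (12) in gcn4, 22 (1) in gat1, 14 (6) in gat1gcn4, 59 (6) in gcn4leu3 and 4 (11) in gat1leu3.

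Setting isolated readings aside, chosen after seeing the data, gave 2 (1) in WT at 20 min, 1 (5) in gat1gcn4 and 1 (13) in gat1leu3 against WT, 0 (3) for the 60 min difference of gat1gcn4, and over time 1 (5) in leu3, 2 (1) in gat1, 3 (6) in gat1gcn4, 3 (6) in gcn4leu3 and 0 (11) in gat1leu3. The direction then turned for RPL39 in gat1leu3 against WT (0.135) and for the 60 min differences of gat1gcn4 in RPS21A/RPS21B (-0.184), RPS21B (-0.677) and RPS27A (-0.294), and likewise without the array that holds them. Over fits lacking 1 array these ran from -3.573 to 0.135, -0.184 to 6.871, -0.677 to 9.178 and -0.294 to 5.557.

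In fits that each lacked 1 array, WT counts were 0 to 2 (20 min), 0 to 0 (60 min) and 0 to 2 (120 min). Against WT at 0 min they were 0 to 4 in gcn4, 0 to 0 in leu3 and gat1, 1 to 5 in gat1gcn4, 0 to 9 in gcn4leu3 and 0 to 15 in gat1leu3. For the 60 min differences they were 0 to 6 in gcn4, 0 to 4 in leu3, 0 to 0 in gat1 and gcn4leu3, 0 to 5 in gat1gcn4 and 0 to 10 in gat1leu3. Over time they were 1 to 6 in WT, 4 to 17 in gcn4, 0 to 6 in leu3, 1 to 2 in gat1, 3 to 9 in gat1gcn4, 5 to 6 in gcn4leu3 and 0 to 12 in gat1leu3. In strains other than WT only 0 and 60 min arrays and gcn4 90 min replicate 3 were left out. The shares of all features called in fits without 1 array are not given.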

Other observations

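The met31 strain, with 1 array per time and no test, had member medians below the WT 0 min mean at every time: -0.23 at 0 min, -0.29 at 10 min, -0.40 at 20 min, -0.50 at 30 min, -0.68 at 45 min and -0.49 at 60 min. The medians over all features were -0.07 to -0.20 on the same arrays. The members' share of all signal was 24.4% at 0 min and 19.7% at 45 min, the lowest of the 151 arrays. In RPS14A the 6 arrays read 6235, 5565, 5437, 5126, 4329.5 and 5038. All 6 arrays had the other deposited scale, and the part of scale in these values was not tested.

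At 10 and 20 min replicate 3 of gat1gcn4 also stood apart within its strain in ribosomal protein mRNA. At 10 min its member median was 0.15 against -0.39 and -0.64 on replicates 1 and 2, and at 20 min it was 0.38 against -0.30 and -0.54. At 20 min the biogenesis median was -0.01 on that replicate, and 0.92 and 1.01 on the others, the opposite order. Its share of signal in ribosomal proteins at 20 min was 33.2%. The strain's arrays lay closer at 0 min, at -0.40 and -0.32, and at 60 min, between -0.59 and -0.46. Replicate 3 had deposited trimmed means of 35.3 at 10 min and 30.8 at 20 min. The other arrays of gat1gcn4 had 52.1 to 99.5, and the part of this in the members' values was not tested.

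Across the 145 arrays the members' median and that of the general stress list had a Pearson correlation of -0.42, and -0.42 after subtracting group means. For the biogenesis list the values were -0.07 and -0.08. The 2 medians of a pair share each array's scaling, and arrays of 1 strain may share a culture, so these are descriptions.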
